A study of Mus musculus with 6 samples.

Results

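The targets of the transcription factor NRF2 and the glutathione transferases were examined in D-gal-treated NOR-10 cells. They form a list of 36 genes, all of which are among the 34745 genes of the expression table. The genes were listed by symbol, with earlier results of these data known. NOR-10 is a mouse skeletal muscle fibroblast line. RNA-seq was performed on 3 control libraries of cells given PBS and 3 libraries of cells given D-gal (D-galactose, a sugar used to induce senescence in culture) at 20 mg/mL for 3 days. All 6 libraries came from this line, and nothing in the labels says whether replicates were separate cultures. The p-values therefore measure the spread between these libraries, which may be technical. The comparison asks how D-gal changed the antioxidant and detoxification genes of these fibroblasts.

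NRF2, encoded by Nfe2l2, is held in the cytoplasm by KEAP1 and sent for degradation. Oxidants and electrophiles modify KEAP1, after which NRF2 accumulates, pairs with small MAF proteins and binds antioxidant response elements in its targets. These targets make and reduce glutathione and thioredoxin, supply NADPH, store iron and degrade haem, and conjugate and export reactive compounds. Since NRF2 is controlled mainly through its protein, the level of its mRNA is not a measure of its activity. In bulk libraries, fewer cells expressing a gene and less of its RNA per cell cannot be told apart.

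The core of the antioxidant response element, written TGACNNNGC, was searched on both strands in RefSeq promoter windows of 300 bases, from 250 before to 50 after each gene start (build GRCm38.p6). Of the 36 genes, 30 had a window. Gclc, Gsr, Prdx6, Hmox1, Gsta4 and Abcc1 had no window in the table used. The core was present in 11 of the 30 genes (36.7%), against 14.0% of all genes in the table, which describes these windows and shows no binding. The following 8 sequences are those of genes that passed the test in either direction, each printed along the strand that carries the core, with the core in capitals and 10 bases on either side.
Me1 (chr9:86695902-86695930, minus strand, rose): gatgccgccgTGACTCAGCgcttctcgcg
Gclm (chr3:122245413-122245441, minus strand, rose): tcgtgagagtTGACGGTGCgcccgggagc
Gstm5 (chr3:107895802-107895830, plus strand, rose): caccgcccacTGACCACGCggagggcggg
Txnrd1 (chr10:82859104-82859132, minus strand, fell): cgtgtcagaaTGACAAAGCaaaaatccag
Prdx1 (chr4:116685456-116685484, minus strand, fell): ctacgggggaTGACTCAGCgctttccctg
Mgst1 (chr6:138140461-138140489, minus strand, fell): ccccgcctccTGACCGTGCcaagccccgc
Nfe2l2 (chr2:75704885-75704913, minus strand, fell): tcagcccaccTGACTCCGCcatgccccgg
Pgd (chr4:149166061-149166089, minus strand, fell): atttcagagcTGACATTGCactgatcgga
The matches in Me1 and Prdx1 have identical letters in the core, TGACTCAGC, which also contains the AP-1 motif TGACTCA. The AP-1 motif, with or without the core, was found in the windows of 6 of the 30 genes (20%), against 5.95% of all genes in the table. Positions are counted from the gene start used for each window. On that count the match of Me1 lies across the start, and that of Pgd begins 3 bases after it. The other 6 lie upstream, from -42 in Gstm5 to -240 in Nfe2l2. The starts used can differ from the ends of the annotated genes. By the annotated bounds, the matches of Me1, Mgst1 and Pgd lie inside their genes. G6pdx, Srxn1 and Gsta3 also held the core, but did not pass the test or were not tested.

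Library totals were 16876087 to 20830349 counts in the control group and 13759108 to 15157064 in the D-gal group, and mitochondrial genes took 4.26% to 4.44% and 4.87% to 4.98% of them. The fibroblast label was checked with 10 markers, of which 9 passed the filter on low counts. Their summed level was 7530 to 7693 CPM (counts scaled to a common library total) in control and 5070 to 5363 in D-gal libraries, with 6 lower and 1 higher in D-gal. Of 8 myogenic markers, Myod1, Myf5, Pax7 and Actn2 were at 0 in every library, and the sums were 3.08 to 3.55 CPM in control and 1.89 to 2.04 CPM in D-gal libraries, with 1 gene, Des, tested and lower. The sums were 2.04 to 3.12 CPM for endothelial markers (5, none at 0 throughout) and 0.948 to 2.04 CPM for adipocyte markers (5, with Adipoq, Cfd and Lep at 0). Epithelial markers (5, Epcam at 0) summed to 6.91 to 8.36 CPM in control and 1.78 to 2.63 in D-gal libraries. Macrophage and leukocyte markers (6) summed to 9.72 to 50.04 CPM in control and 8.91 to 9.36 in D-gal libraries. Control replicate 1 was the high library, with 627 counts of Lyz2 against 114 and 86 in the other controls. Whether these differences take part in the results below was not tested, and counts are given with and without that library.

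The NRF2-related genes that changed with D-gal were mostly lower. Of the 36 genes, 35 passed the filter on low counts. The exception was Gsta3, an alpha-class transferase with 0, 6 and 5 counts in control and 0, 2 and 0 in D-gal libraries. By the quasi-likelihood test of edgeR, with p-values adjusted (Benjamini-Hochberg) over all 13407 genes tested and a threshold of 0.05, 18 of the 35 were lower in D-gal (51.4%), where 17.8% of all genes were lower. Another 3 were higher (8.57%), where 16.9% of all genes were higher, and 14 did not pass. Because the list was chosen with earlier results of these data known, these shares only describe it. The role groups below hold 2 to 8 tested genes each, and their counts are to be read against the same shares. The median log2 fold change was -0.19 over the 35 genes and 0.0036 over all genes. Without control replicate 1, 17 genes were lower and 2 higher. Without D-gal replicate 1, 19 were lower and 1, Me1, was higher.

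The changes were mostly small. Of the 35 genes, 3 passed the test with a change of 1 or more on the log2 scale, where 4.21% of all genes did. These were Me1, which rose, and Ugt1a7c and Gsta4, which fell. The groups did not overlap in 21 genes that were lower and 4 that were higher in D-gal, where 49.1% of all genes did not overlap in either direction. The list as a whole took 0.571% to 0.576% of all counts in control and 0.484% to 0.503% in D-gal libraries, so that the groups were apart.

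**Figure D1:**
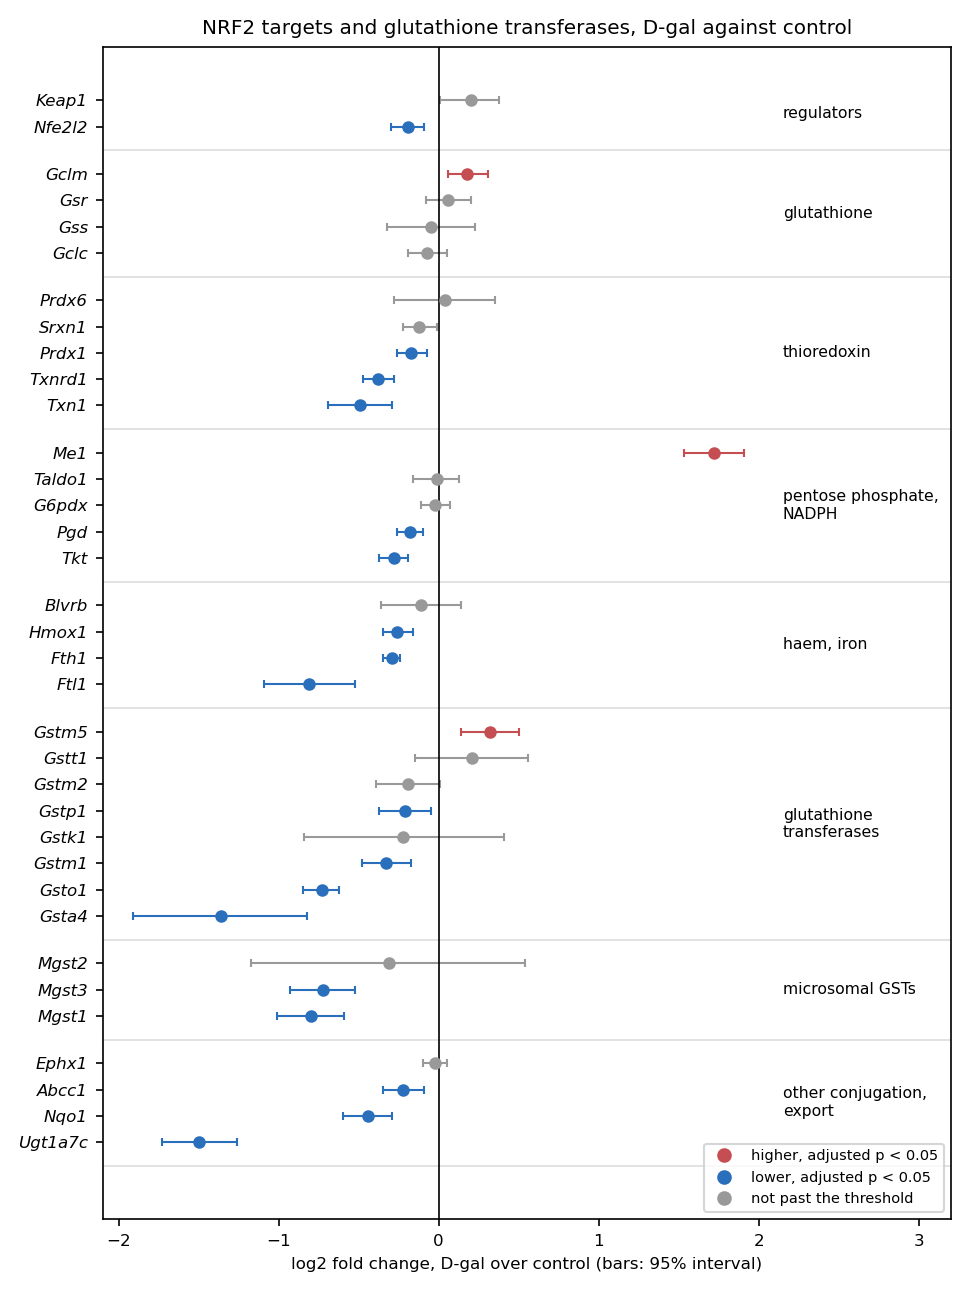
Log2 fold change of the 35 tested genes, D-gal over control (horizontal axis), in groups by role, with 95% intervals from edgeR (3 libraries against 3). Red points are higher and blue points lower at an adjusted p under 0.05, and grey points did not pass. Me1 stands alone at 1.72, and the lowest values are those of Ugt1a7c at -1.50 and Gsta4 at -1.36.

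Of the regulators, Nfe2l2 itself fell slightly. Its normalized counts (counts scaled to the mean effective library size) were 1288, 1356 and 1265 in control and 1144, 1130 and 1144 in D-gal libraries. The log2 fold change was -0.19 (SE 0.04, adjusted p = 0.0108), and the groups were apart. Keap1, the repressor, had normalized counts of 947, 912 and 814 in control and 972, 969 and 1123 in D-gal libraries. The D-gal libraries were all above the controls, but the log2 fold change of 0.20 (95% interval 0.01 to 0.38) did not pass over all genes (adjusted p = 0.0973). Keap1 overlaps Gm16754 on the other strand, with 9.02% of its sequence words shared, and whether the counting used strand is not given, so its count is uncertain. Gm16754 held 0.0664% of their joint counts in control and 0.149% in D-gal, and their sum differed between groups by the same 0.23 as Keap1 alone when scaled by library totals. Within a library, the ratio of Nfe2l2 to Keap1 counts was 1.36, 1.49 and 1.55 in control and 1.18, 1.17 and 1.02 in D-gal.

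Of the genes of glutathione synthesis and reduction, 1 of 4 was higher and none lower, with a median log2 fold change of 0.01. Of all genes, 16.9% were higher and 17.8% lower. Gclm encodes the modifier subunit of glutamate-cysteine ligase, the rate-limiting enzyme of glutathione synthesis. Its normalized counts were 993, 933 and 1032 in control and 1156, 1091 and 1105 in D-gal libraries. It rose by 1.13-fold (log2 0.18, SE 0.05, adjusted p = 0.0335). The call was lost in 7 of 14 alternatives, among them leaving out control replicate 1 or 2 or any of the D-gal libraries (log2 0.14 to 0.20, adjusted p = 0.0528 to 0.0961). Gclm also overlaps other annotated genes on both strands (6.83% shared sequence), so its count is uncertain. Gclc, the catalytic subunit, had 1083, 1084 and 1095 in control and 972, 1072 and 1069 in D-gal. The D-gal libraries lay just below the controls, and the difference did not pass (log2 -0.07, interval -0.19 to 0.05, adjusted p = 0.359). The ratio of Gclc to Gclm was 1.1 ± 0.052 in control and 0.93 ± 0.078 in D-gal (SD, n = 3), without overlap. Gsr, which reduces oxidised glutathione, had 746, 777 and 698 against 799, 782 and 735, which overlapped (log2 0.06, adjusted p = 0.496). Gss, glutathione synthetase, did not pass either (log2 -0.05, interval -0.32 to 0.23), and it is uncertain because 12.8% of its sequence is shared, mainly with overlapping genes on the other strand. Scaled by the library totals, Gss and its 2 main overlapping genes together were higher in every D-gal library than in any control (log2 0.28), whereas Gss alone differed by -0.01.

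In the thioredoxin system, 3 of 5 genes were lower and none higher (median log2 -0.17), where 17.8% of all genes were lower and 16.9% higher. Txn1, the small protein that reduces disulfides in its substrates, had normalized counts of 2722, 2749 and 2857 in control and 2094, 1677 and 2169 in D-gal libraries. It fell by 0.49 on the log2 scale (SE 0.09, adjusted p = 0.0037), with all D-gal libraries below the controls. Txn1 shares 6.95% of its sequence with the pseudogene Txn-ps1, which had almost no counts of its own.

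Txnrd1, the selenoenzyme that recharges thioredoxin with NADPH, had 5462, 5624 and 5758 in control and 4550, 4164 and 4252 in D-gal libraries. This was a fall of 0.38 on the log2 scale (SE 0.04, adjusted p = 3.46e-04), again without overlap. Prdx1, a peroxiredoxin that removes hydrogen peroxide at the expense of thioredoxin, had 5155, 5298 and 5034 against 4749, 4349 and 4711. Its fall was smaller (log2 -0.17, SE 0.04, adjusted p = 0.0182) and did not pass without control replicate 2 (log2 -0.15, adjusted p = 0.0631), and 15.4% of its sequence is shared with other genes. Srxn1, sulfiredoxin, which repairs overoxidised peroxiredoxins, gave a log2 fold change of -0.12 and did not pass (adjusted p = 0.0927), although its groups were apart. Prdx6, a peroxiredoxin that works with glutathione, varied widely in D-gal, from 1017 to 1474 normalized counts, and its difference of 0.04 had an interval from -0.28 to 0.35. The ratio of Gsr to Txnrd1 was 0.137, 0.138 and 0.121 in control and 0.176, 0.188 and 0.173 in D-gal libraries.

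Of the pentose phosphate and NADPH genes, Me1 rose, Tkt and Pgd fell and the other 2 genes did not pass. Me1 encodes cytosolic malic enzyme, which turns malate into pyruvate and yields NADPH, and it lies on the minus strand at chr9:86581371-86695953 (GRCm38). Its normalized counts were 1577, 1502 and 1526 in control and 4522, 5731 and 4886 in D-gal libraries. The lowest D-gal library was far above the highest control, a 3.29-fold rise (log2 1.72, SE 0.08, adjusted p = 7.87e-06). Of the 13407 genes tested, Me1 was number 93 from the highest fold change. About 36.9% of its sequence is shared, mainly with the annotated genes Gm7049 and Gm48795, so its count is uncertain to that extent.

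None of the 4 pentose phosphate enzymes rose. Tkt, transketolase of the non-oxidative branch, had 5543, 5776 and 5744 in control and 4627, 4511 and 4901 in D-gal, a fall of 0.28 on the log2 scale (SE 0.04, adjusted p = 0.00108). Pgd, the NADPH-yielding 6-phosphogluconate dehydrogenase, had 2463, 2437 and 2412 against 2182, 2167 and 2107 and fell by 0.18 on the log2 scale (SE 0.03, adjusted p = 0.00437). In both genes the groups were apart. G6pdx, glucose-6-phosphate dehydrogenase at the entry of the pathway, gave -0.02 (interval -0.11 to 0.07), and Taldo1, transaldolase, gave -0.01 (interval -0.16 to 0.13). Both overlapped between groups, and both share sequence with other genes (23.6% and 14.0%). The ratio of Me1 to G6pdx counts was 0.655, 0.594 and 0.611 in control and 1.89, 2.25 and 2.03 in D-gal libraries. The summed share of counts of the 5 genes was higher in every D-gal library, 0.0961% to 0.104%, than in the controls, 0.0842% to 0.0858%. Without Me1 the other 4 genes took 0.0751% to 0.0768% in control and 0.069% to 0.0699% in D-gal libraries, lower in each.

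**Figure D2:**
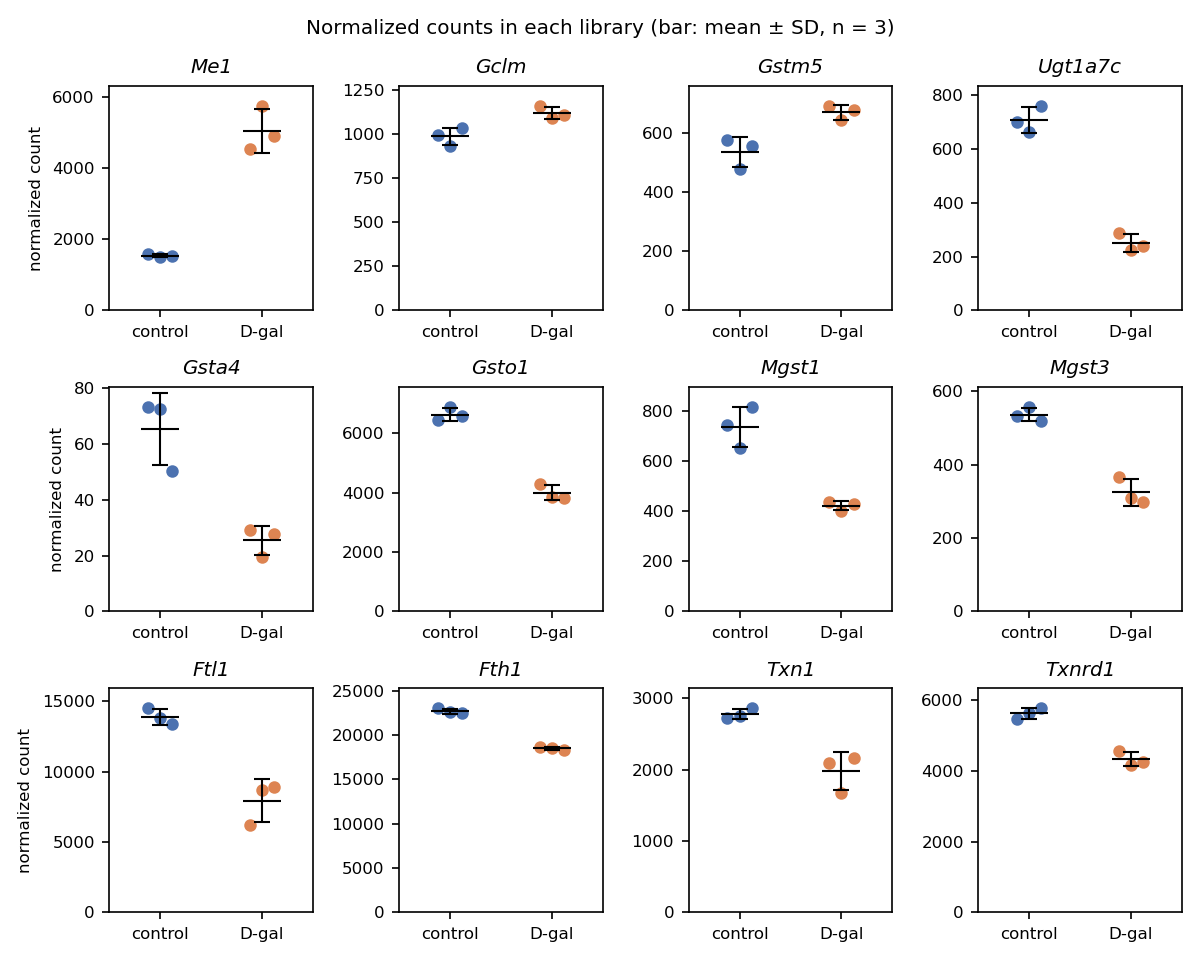
Normalized counts of 12 genes in each library (points), with the mean and SD of 3 libraries per group (bars); every vertical axis starts at 0. Me1, Gclm and Gstm5 are higher in D-gal libraries and the other 9 lower, and in none of the 12 do the groups overlap. The 12 genes shown all passed the test. Of the 35 tested genes of the list, 10 overlapped, and 49.1% of all genes tested did not overlap.

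Of the haem and iron genes of the list, 3 of 4 were lower (median log2 -0.28), against 17.8% of all genes, and Blvrb did not pass. Ftl1, the ferritin light chain, had the highest level of the list by annotated exon length. It stood at 610.5 ± 26.2 CPM per kilobase of exon in control and 357.5 ± 70.0 in D-gal libraries (SD, n = 3). This rank rests on exon lengths of 1340 bases for Ftl1 and 3469 for Fth1. The authors' deposited values imply lengths of 2826 and 866, by which Fth1 is the higher. The normalized counts of Ftl1 were 14500, 13850 and 13380 in control and 6180, 8730 and 8932 in D-gal libraries. D-gal replicate 1 was the lowest, but all D-gal libraries lay below the controls (log2 -0.81, SE 0.12, adjusted p = 0.00174; -0.90 to -0.66 over the alternatives). Ftl1 shares 64.2% of its sequence with other annotated genes, mostly ferritin pseudogenes, and is uncertain for that reason.

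Fth1, the heavy chain with the ferroxidase site, had 23010, 22580 and 22470 in control and 18630, 18570 and 18340 in D-gal. The fall of 0.29 on the log2 scale was closely replicated (SE 0.02, adjusted p = 6.94e-05). The ratio of Ftl1 to Fth1 counts was 0.63, 0.613 and 0.595 in control and 0.332, 0.47 and 0.487 in D-gal libraries, all below the controls. Hmox1, haem oxygenase 1, a widely used readout of NRF2, had 2566, 2493 and 2702 against 2120, 2163 and 2210 and fell by 0.26 on the log2 scale (SE 0.04, adjusted p = 0.00213). Blvrb, biliverdin reductase B, gave -0.11 (interval -0.36 to 0.14, adjusted p = 0.471).

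The cytosolic and mitochondrial glutathione transferases, which conjugate glutathione to electrophiles, were lower in 4 of the 8 tested genes and higher in 1 (median log2 -0.22). The shares over all genes were 17.8% lower and 16.9% higher. Gsta4, whose substrates include the lipid peroxidation product 4-hydroxynonenal, was a low gene, with 84, 89 and 50 counts in control and 26, 18 and 23 in D-gal libraries. It was 2.58-fold lower (log2 -1.36, SE 0.24, adjusted p = 0.00316), and the lowest control was above the highest D-gal library. Leaving out single libraries or changing the method gave -1.51 to -0.94.

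Gsto1, the omega-class transferase with thiol reductase activity (chr19:47854970-47864790, plus strand), was among the most abundant genes of the list at 193.0 CPM per kilobase in control. Its normalized counts were 6458, 6880 and 6578 in control and 4287, 3866 and 3837 in D-gal libraries. It was 1.66-fold lower (log2 -0.73, SE 0.05, adjusted p = 3.50e-05), without overlap and without sequence shared with other genes.

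Genes of the mu class moved in both directions. Gstm1 had normalized counts of 1108, 1171 and 1294 in control and 945, 992 and 907 in D-gal and fell by 0.33 on the log2 scale (SE 0.07, adjusted p = 0.00704). Gstm5, chosen for its direction after its values were seen, had 574, 478 and 555 in control and 689, 642 and 676 in D-gal, and rose by 0.32 (SE 0.08, adjusted p = 0.016). Without D-gal replicate 1 the rise did not pass (log2 0.30, adjusted p = 0.0521). Gstm2 did not pass (log2 -0.19, interval -0.39 to 0.01, adjusted p = 0.13), except without D-gal replicate 1 (log2 -0.28, adjusted p = 0.0337). Of Gstm1, 28.8% of the sequence is shared with relatives and pseudogenes, and Gstm5 overlaps 4933431E20Rik on the other strand (11.1%), so both are uncertain. Scaled by library totals, Gstm1 summed with 2 of the genes sharing its sequence differed by -0.29, the same as alone. Gstm5 summed with 4933431E20Rik differed by 0.32, against 0.35 alone. The ratio of Gstm5 to Gstm1 counts was 0.518, 0.408 and 0.429 in control and 0.729, 0.648 and 0.745 in D-gal.

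Gstp1, the pi-class transferase, was barely past the threshold (log2 -0.21, SE 0.07, adjusted p = 0.0446), and kept its call in 4 of 14 alternatives. It did not pass without any one control library or without D-gal replicate 2 or 3 (log2 -0.24 to -0.14, adjusted p = 0.0585 to 0.121), and it shares 38.5% of its sequence with Gstp2, which held 0.0639% of their joint counts in control and 0.0474% in D-gal. The ratio of Gsto1 to Gstp1 counts was 7.14 ± 0.065 in control and 5 ± 0.38 in D-gal (SD, n = 3). Gstt1 (log2 0.21, interval -0.15 to 0.56) and the mitochondrial Gstk1 (log2 -0.22, interval -0.84 to 0.41) did not pass. At no more than 30.3 normalized counts in any library, a smaller difference in Gstk1 was not detectable at this depth.

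The microsomal transferases, membrane enzymes of a separate protein family, were lower in 2 of 3 genes (median log2 -0.72), against 17.8% of all genes. Mgst1 (chr6:138140316-138156755, plus strand), which also reduces lipid hydroperoxides, had normalized counts of 743, 652 and 815 in control and 437, 401 and 430 in D-gal libraries (log2 -0.80, SE 0.09, adjusted p = 3.70e-04). Mgst3 (chr1:167371966-167393841, minus strand) had 533, 557 and 520 against 367, 310 and 299 (log2 -0.72, SE 0.09, adjusted p = 5.90e-04). Neither gene overlapped between groups, and both fell. The ratio of Mgst1 to Mgst3 counts was 1.38 ± 0.20 in control and 1.31 ± 0.13 in D-gal (SD, n = 3), and it overlapped. Mgst2 was low, with 36.6, 47.3 and 33.3 against 41.5, 39.3 and 13.3 normalized counts, and its log2 fold change of -0.31 had an interval from -1.17 to 0.54. D-gal replicate 3 was the low library, and without it the value was 0.04 (SE 0.24).

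Of the other enzymes of conjugation and of the exporter, 3 of 4 were lower (median log2 -0.33), against 17.8% of all genes, and none higher. Ugt1a7c, a UDP-glucuronosyltransferase (chr1:88095062-88220002, plus strand), fell the most of the list. Its normalized counts were 700, 663 and 757 in control and 286, 223 and 241 in D-gal libraries, 2.83-fold lower without overlap (log2 -1.50, SE 0.10, adjusted p = 3.54e-05). The Ugt1a genes share their last exons, and 55.7% of the sequence of Ugt1a7c lies in its neighbours, so the single gene is uncertain. The sum over all 9 Ugt1a genes went from 1397, 1457 and 1000 counts in control to 418, 372 and 297 in D-gal libraries, a log2 difference of -1.44 after scaling by the library totals.

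Nqo1, the quinone reductase often taken as the type gene of NRF2, had 487, 486 and 510 in control and 364, 344 and 382 in D-gal (log2 -0.44, SE 0.07, adjusted p = 0.00172). Abcc1, the exporter of glutathione conjugates, had 1467, 1484 and 1580 against 1334, 1210 and 1358 (log2 -0.22, SE 0.06, adjusted p = 0.0199), and kept its call in 10 of 14 alternatives. It did not pass in either limma fit on FPKM values. Nor did it pass without control replicate 3 or D-gal replicate 2 (log2 -0.18 and -0.17, adjusted p = 0.0656 and 0.0508). The D-gal libraries of both genes lay below all controls. Ephx1, microsomal epoxide hydrolase, had a narrow interval: at 214.1 CPM per kilobase in control and 215.9 in D-gal, it differed by -0.02 on the log2 scale, with an interval from -0.10 to 0.05.

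**Figure D3:**
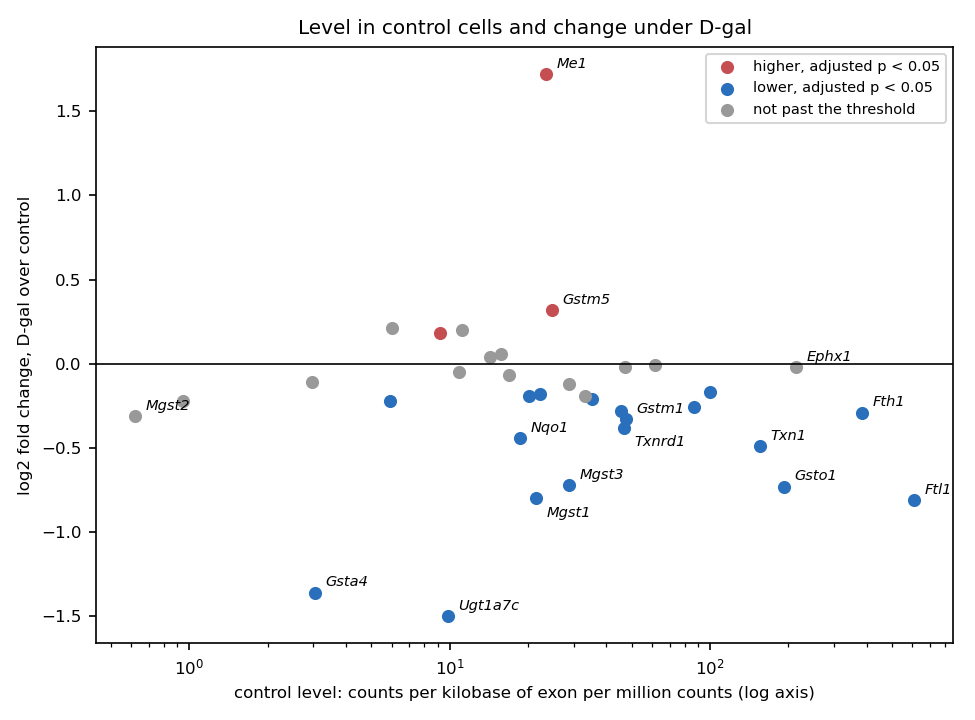
Level in control cells (horizontal log axis, CPM per kilobase of exon, mean of 3 libraries) against the log2 fold change under D-gal (vertical axis) for the 35 tested genes, coloured by the edgeR call. By annotated exon length the highest levels, Ftl1 at 610.5 and Fth1 at 384.7, belong to genes that fell, and Me1 starts mid-range at 23.5. The order along this axis depends on the gene lengths used.

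By level, the list spanned a wide range in control cells, and the order below rests on annotated exon lengths. With the lengths implied by the authors' deposited values, Fth1 exceeds Ftl1. Ftl1, Fth1, Ephx1, Gsto1 and Txn1 were the highest, at 610.5 down to 155.4 CPM per kilobase, and Gstk1, Mgst2 and Gsta3 the lowest, at 0.946, 0.621 and 0.0448. Me1 moved from 23.5 in control to 79.0 in D-gal. The coefficient of variation between replicates had a median of 4.05% in control and 4.8% in D-gal over the 35 tested genes, and exceeded 10% in 7 and 11 of them.

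The ratios within a library need no scaling between libraries. Of 10 ratios computed, 8 did not overlap between groups, where 49.1% of all single genes tested did not. No such share was computed for ratios, and the pairs were chosen with earlier results of these data known. Each of the 8 gave an exact two-sided permutation p of 0.1, the smallest that 3 libraries against 3 allow, or 0.125 after Benjamini-Hochberg adjustment. The exceptions were Mgst1 to Mgst3 (exact permutation p = 0.8) and Hmox1 to Blvrb (exact permutation p = 0.4), both overlapping.

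**Figure D4:**
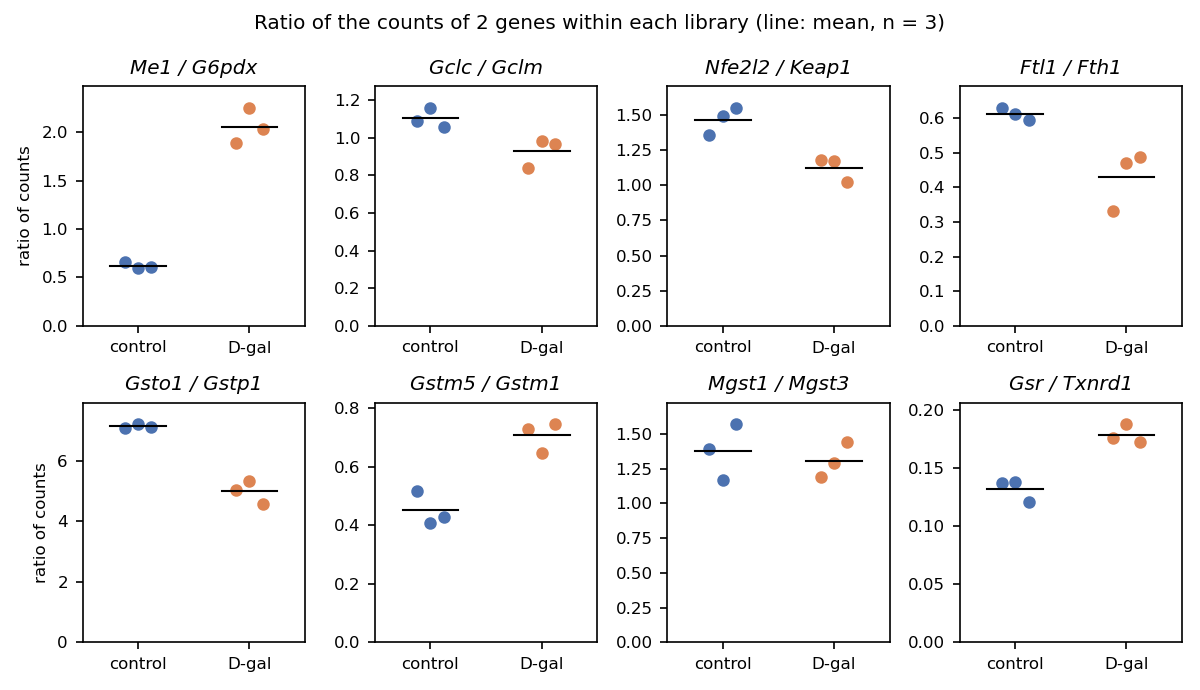
Ratio of the counts of 2 genes within each library (points) and the mean of 3 libraries per group (lines), on linear axes that start at 0. Me1 over G6pdx goes from 0.62 to 2.06 and Gstm5 over Gstm1 from 0.452 to 0.707, while Ftl1 over Fth1 goes from 0.613 to 0.43; Mgst1 over Mgst3 overlaps.

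The core element was seen in genes of either direction. Of the 10 tested genes with the core in the window, 3 rose (Me1, Gclm and Gstm5), 5 fell and 2 did not pass, with a median log2 fold change of -0.14. Of the 19 tested genes with a window and no core, none rose, 10 fell and 9 did not pass, with a median of -0.28. Over all genes, 16.9% were higher and 17.8% lower. Of the 3 that rose, Gclm and Gstm5 did not pass without D-gal replicate 1. Me1 and Prdx1, whose windows above hold the same 9 letters, gave log2 fold changes of 1.72 and -0.17. These counts are descriptions of few genes, and the windows leave out more distant elements.

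Other genes of the same pathways, from lists that hold no member, are given for comparison. Of 134 tested (161 in the table, 5 of them at 0 in all libraries), 24 were higher (17.9%), 29 lower (21.6%) and 81 did not pass, with a median log2 fold change of 0.01. Both shares lay near those of all genes, 16.9% and 17.8%, and the counts of the single lists below are to be read against the same shares. Among partners and repressors of NRF2, 2 of 16 were higher and 2 lower. Mafk and Maff, small MAF partners, rose (log2 0.50, SE 0.04, and 0.37, SE 0.07), and Sqstm1, an autophagy receptor that binds KEAP1, fell by 0.37 (SE 0.03). Of 20 further NRF2 targets, 4 were higher and 8 lower, including Bdnf, a neurotrophin (log2 0.83, SE 0.06), Akr1b8, an aldo-keto reductase (0.37, SE 0.05), and the carboxylesterase Ces1g (-1.14, SE 0.12). Some genes named here and below share sequence with other genes, so their counts are uncertain. They include Sqstm1 (16.4%), Bdnf (13.5%), Esd (12.1%) and Eef1g (47.6%).

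In glutathione metabolism outside the list, 7 of 22 were higher and 4 lower. Hagh, which hydrolyses lactoylglutathione, and the peroxidase Gpx1 rose (log2 0.59, SE 0.08, and 0.25, SE 0.04), and Esd, which hydrolyses formylglutathione, fell by 0.46 (SE 0.05). In the thioredoxin system, 1 of 16 was higher and 1 lower, the methionine sulfoxide reductase Msrb1 (0.58, SE 0.07) and the peroxiredoxin of the endoplasmic reticulum Prdx4 (-0.86, SE 0.06), while its relative Msrb2 gave -0.43 and did not pass (adjusted p = 0.0528).

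Of 16 further genes of NADPH supply, 4 were higher and 3 lower. Nadk2, the mitochondrial NAD kinase, had 2699, 2631 and 2251 counts in control and 3837, 3852 and 3643 in the shallower D-gal libraries and rose by 1.91-fold (log2 0.93, SE 0.04, adjusted p = 6.23e-06). The NADP-dependent isocitrate dehydrogenases parted by compartment: cytosolic Idh1 rose (log2 0.28, SE 0.04) and mitochondrial Idh2 fell by 0.61 (SE 0.06). Of 17 haem and iron genes, 1 was higher, the transferrin receptor Tfrc (0.31, SE 0.04), and 2 lower, the ferrireductase Steap3 (-1.02, SE 0.12) and the biliverdin reductase Blvra (-0.27, SE 0.08). Of 14 genes of conjugation and export, 1 was higher, the acetyltransferase Nat2 (0.83, SE 0.10), and 5 lower, among them Ugdh, which supplies glucuronic acid to Ugt1a enzymes (-0.50, SE 0.04), and the exporter Abcc3 (-0.80, SE 0.11).

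Of the glutathione transferase genes of both kinds of list, 25 were in the table and 19 tested, with 4 higher, 7 lower and 8 not past (median log2 -0.19). The higher genes were 21.1% and the lower 36.8% of those tested, where 16.9% of all genes were higher and 17.8% lower. Those outside the list included Gstt3 (log2 0.65, SE 0.09), Gstz1 (0.33, SE 0.08) and Gstt2 (1.77, SE 0.37), which rose, the last on 4 to 6 counts in control and 12 to 17 in D-gal libraries. Gstt2 passed the filter on low counts only through the D-gal libraries, where it is high. Its rise is therefore not independent of the filter, although it is counted among the 4 higher genes. Gsto2, next to Gsto1 on chromosome 19, fell by 1.08 (SE 0.17), so both omega genes were lower. The 7 mu genes on chromosome 3 lie between 107895821 and 108044894, and within that cluster Gstm5 rose, Gstm1 fell and Gstm2, Gstm4, Gstm6 and Gstm7 did not pass, while Gstm3 was too low to test. The 3 smallest p-values among transferase-related genes outside the list belonged to proteins that share the fold rather than the main activity: the chloride channel protein Clic1 (-0.33, SE 0.03), the elongation factor Eef1g (-0.26, SE 0.03) and Clic4 (-0.52, SE 0.05), all lower.

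**Figure D5:**
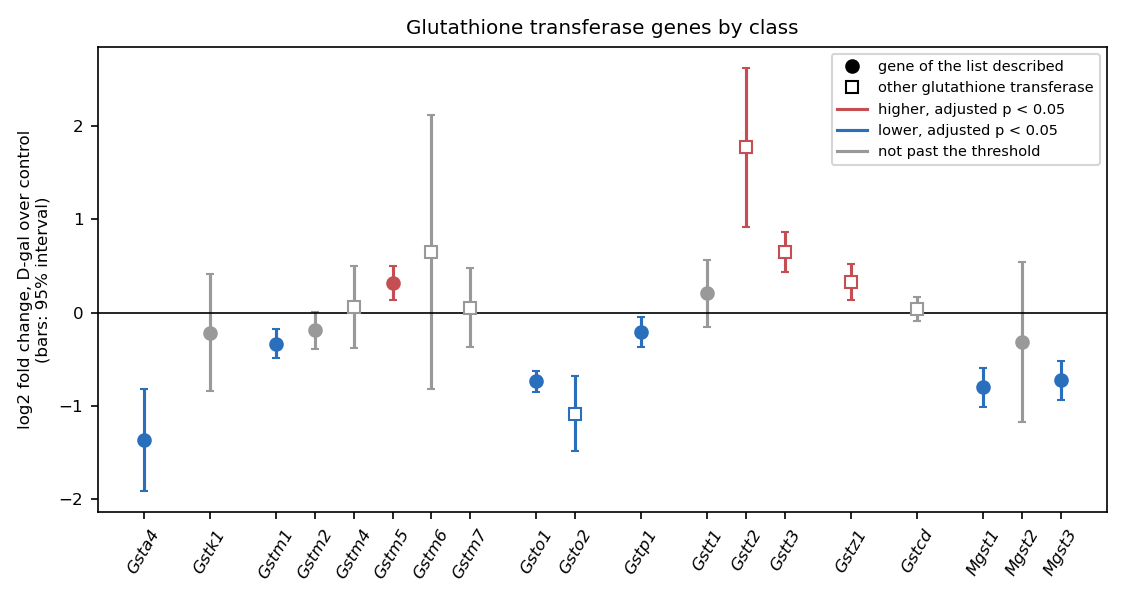
Log2 fold change (vertical axis, 95% interval from edgeR, 3 libraries against 3) of the 19 tested glutathione transferase genes, in classes along the horizontal axis. Filled circles are genes of the list and open squares other transferases; both omega genes are lower (-0.73 and -1.08), 2 of 3 theta genes are higher (Gstt2 at 1.77, Gstt3 at 0.65), and the mu genes lie between -0.33 and 0.65. Gstt2 had few counts and passed the filter on low counts only through the D-gal libraries.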

How the data were processed

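Total RNA of NOR-10 cells was sequenced in 3 control and 3 D-gal libraries, grouped and numbered by the sample labels. The dose and time of D-gal come from the methods. The deposited table holds a read count per gene and library, which the authors gave without normalization, and FPKM values, which the authors computed from the counts, a gene length and the library total. The submitters' processing notes name HISAT2 2.0.4, and the methods add trimming. The counting tool, the use of strand and the genome build are not given in the sources used here. The labels name an RNA-seq library kit and the methods a small-RNA kit. Positions matched GENCODE M21 (GRCm38) in 29 of the 36 genes.

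The counts were tested with edgeR 4.0.16 (R 4.3.3; TMM, filterByExpr, quasi-likelihood test, Benjamini-Hochberg adjustment over 13407 genes), with no covariate. The standard error is the log2 fold change over the square root of F. Levels per kilobase use annotated exon lengths. Shared sequence is the percent of words of 31 bases that occur in other annotated genes. Values in every library are given for up to 3 genes of largest change per role, Nfe2l2 and Keap1, and of each other pathway list the 3 genes of smallest p are named. The members, lists and ratios were chosen with earlier results of these data known. Alternatives were DESeq2 1.42.0, RLE factors, other count filters, a replicate block, each library left out, limma 3.58.1 on log2(FPKM + 1) and log2(FPKM + 0.1), thinning to 13759108 counts (seed 7) and an adjusted p under 0.01. Functions were tested on simulated data. Replicates of a group differed by more than sampling noise in every pair. Intervals on fold changes cover the spread between libraries.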

Additional observations from a re-analysis of the deposited data

How the results depend on the processing

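Over the alternatives, 14 to 19 of the 35 genes were lower and 1 to 3 higher. The count of higher genes was 1 at an adjusted p under 0.01, and 1 to 3 when single libraries were left out (1 without D-gal replicate 1, where Gclm and Gstm5 no longer passed). The count of lower genes was 16 to 19 with single libraries left out. Of the other pathway genes, 17 were lower at an adjusted p under 0.01 in place of 29, and 21 to 25 with single libraries left out. With a replicate block, 3 genes were higher and 17 lower, Gstp1 being the one lost. No pairing by replicate number was seen: deviations of same-numbered libraries correlated by -0.0114, -0.00269 and 0.0277. The highest value, 0.0282, was between control replicate 1 and D-gal replicate 2. Correlations this small cannot tell whether the libraries were paired. Over all genes the block called 3982 in place of 4661.

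Of 490 values over the 35 genes and 14 alternatives, 452 kept direction and side of the threshold, 23 lost the call, 1 gained it and 14 changed sign. The last belonged to 6 genes that passed nowhere: G6pdx (0.02 in both limma fits), Ephx1 (0.01 in both), Taldo1 (0.02 in both, -0.08 to 0.04 with single libraries left out), Gss (-0.13 to 0.08 with single libraries left out), Prdx6 (-0.13 to 0.15) and Mgst2 (-0.56 to 0.04). The cause was not tested. Me1 stayed between 1.62 and 1.79 and Ugt1a7c between -1.61 and -1.22. Gsta3 was too low to test, and Gstk1 and Mgst2 had few counts. The FPKM lengths differ from the annotated exon lengths by 0.25 to 2.41 times over the list. The order of genes by level therefore depends on the length used.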

Other observations

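Some genes of the pathway lists lie outside the naming rule and were chosen after their values were seen. Aldh3a1, an aldehyde dehydrogenase induced by NRF2, gave the lowest value of those tested in these lists. It had 35, 32 and 47 counts in control and 13, 1 and 3 in D-gal libraries (log2 -2.39, SE 0.60, adjusted p = 0.0166). Aldh3a1 passed the filter on low counts only through the control libraries, where it is high, so its fall is not independent of the filter. Slc7a11, the cystine carrier that feeds glutathione synthesis, fell by 0.80 on the log2 scale (SE 0.13, adjusted p = 0.00266). Ggt5, which cleaves extracellular glutathione conjugates, rose (log2 1.02, SE 0.22, adjusted p = 0.00945) on 16 to 25 counts in control and 30 to 35 in D-gal libraries. Of the other Ugt1a genes, Ugt1a6a (-1.54, SE 0.42) and Ugt1a10 (-1.71, SE 0.50) fell, on counts that share sequence with Ugt1a7c.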
